A study of Mus musculus with 12 samples.

Results

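FoxP3 ChIP-seq in regulatory T (Treg) cells gave 7104 regions that had a peak in the first replicate of both genotypes and in none of the other 4 libraries. These regions were chosen from the deposited peak lists of chromosomes 1 to 19 by joining peaks of different lists that overlapped by at least 1 bp. They made up 29.4% of the 24175 regions so formed (exact Clopper-Pearson 95% interval 28.8 to 30.0%, counting error only). They were the most frequent pattern of presence across the 6 lists, ahead of 6126 regions seen in WT replicate 1 alone and 3923 seen in A384T replicate 1 alone. Presence in the lists chose them, so their number, rank and strength are given as descriptions without a test.

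FoxP3 is the forkhead transcription factor that defines Treg cells, the CD4+ T cells that restrain other immune cells. It binds DNA through its forkhead domain, largely at sites that other T cell factors already hold open, and it acts together with partner proteins. A384T is an amino acid substitution in the forkhead domain, known from patients with the immune disease IPEX. A peak list records where tags from the antibody-bound DNA exceed a control by more than a set threshold, so a weak site can be listed in one library and missed in the next.

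The study compared FoxP3WT:hCD2 with FoxP3A384T:hCD2 mice on the C57BL/6J strain, with 3 ChIP libraries per genotype (WT and A384T below). Both lines carry hCD2, a human CD2 cell surface reporter, and CD4+ hCD2+ cells were isolated magnetically from lymph nodes and spleen without further treatment. Age, sex and pooling of animals are not given in the sources used here, nor is it said that the triplicates came from separate animals. Each ChIP library has a peak list in mm9 coordinates, called against a control of its own. The 6 input libraries named by the labels were not analysed here. The cell type label could not be set against marker genes, because the gene table at hand is of another build than the peaks.

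The libraries that carry these regions stood apart from the other 4. After removal of duplicate tags WT replicate 1 held 17520951 tags and A384T replicate 1 held 18255500, where the other ChIP libraries held 21752899 to 25386770. Their tags were 51 bp long against 49 bp, and redundant tags made up 39% and 30% against 18 to 21%. The fragment length estimated by the peak caller was 150 and 149 bp against 123 to 135 bp. In the list headers the alignments of both replicate 1 libraries and their controls carry sequence names from another number series than the remaining ones. With fewer tags they still had the longest lists, 20218 peaks in WT replicate 1 and 17734 in A384T replicate 1 on these chromosomes, where the others had 1670 to 6478. Presence in these 2 lists alone cannot be told apart from what sets the replicate 1 libraries apart.

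The 2 replicate 1 lists shared most of their regions. Of 19932 regions in WT replicate 1 and 17426 in A384T replicate 1, 13312 were in both, which is 66.8% of the first list and 76.4% of the second. The 7104 regions were 53.4% of these 13312. The remainder of the shared regions had a peak in 1 (2813), 2 (1484), 3 (958) or all 4 (953) of the other lists. In 6927 of the 7104 a single WT peak met a single A384T peak, and 110 joined 2 WT peaks to 1 A384T peak.

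Members sat in the middle of both lists. The strength of a peak is given by -log10 q, the authors' adjusted significance, and its percentile runs from 0 for the weakest to 100 for the strongest peak of a list. The median percentile was 46.5 in WT replicate 1 (quartiles 26.4 and 64.4) and 45.3 in A384T replicate 1 (quartiles 24.2 and 65.9). These medians correspond to rank 10811 of 20218 and rank 9705 of 17734. Regions of WT replicate 1 alone had a median percentile of 25.7, and those of A384T replicate 1 alone 25.9. Regions found in all 6 lists stood at 96.8 and 93.8.

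The share of members first rose and then fell with strength. Each list was cut into 10 bins of equal peak number from bin 1, the weakest, to bin 10, the strongest. In WT replicate 1 members made up 31.6% of bin 1, 48.1% of bin 7 and 2.13% of bin 10. In A384T replicate 1 the same shares were 43.3% in bin 1, 49.5% in bin 7 and 6.72% in bin 10. Regions of 1 replicate 1 list alone fell steadily along the same axis, from 64.3% to 0.0495% in WT and from 45.9% to 0.339% in A384T. Weak peaks of these lists were thus mostly private or shared with the other replicate 1 library, and bin 10 was shared more widely, with 41.9% of its WT regions and 35.7% of its A384T regions found in all 6 lists.

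**Figure D1:**
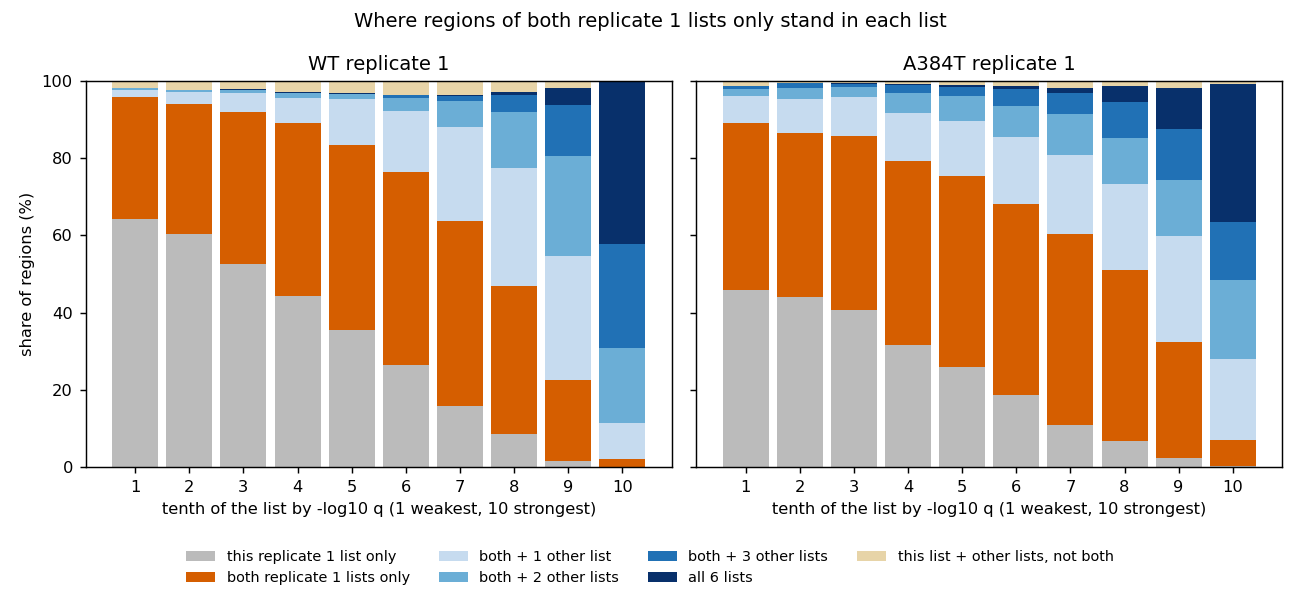
Each bar is 1 of 10 bins of a replicate 1 list ordered by -log10 q (x axis, 1 weakest, 10 strongest), and the colours give the share of its regions (y axis, %) by the lists that hold them. The orange share, both replicate 1 lists only, is highest in the middle and falls to 2.13% in WT and 6.72% in A384T in bin 10.

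Few members were strong in both libraries. A percentile of at least 80 in both lists was reached by 126 members (1.77%), against 2242 of the 13312 regions shared by these lists. At least 90 in both was reached by 4 members (0.0563%), against 1033 of the 13312 shared regions. In WT replicate 1, 969 members (13.6%) had -log10 q between 10, the authors' cutoff, and 20, and 4814 (67.8%) lay between 20 and 50. In A384T replicate 1 these numbers were 864 (12.2%) and 4347 (61.2%). The weakest member peaks, just inside the cutoff, had -log10 q of 10.05 in WT and 10.2 in A384T.

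Member peaks were of middle height and width. The pileup, the number of ChIP tags stacked at the summit, had a median of 50 in WT replicate 1 (quartiles 41 and 62) and 51 in A384T replicate 1 (quartiles 38 and 68). In both libraries the ChIP tags were fewer than the control tags, so these pileups are unscaled. Regions of WT replicate 1 alone had a median pileup of 32, those of A384T replicate 1 alone 40, and those found in all 6 lists 144 in WT and 117 in A384T. Peak lengths followed the same order in WT, with medians of 201 bp in that list alone, 247 bp in members and 551 bp in regions of all 6 lists. The A384T medians were 200, 252 and 452 bp.

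After joining, members spanned a median of 302 bp (quartiles 245 and 404 bp, range 155 to 1558 bp). Only 42 of them (0.591%) reached 1 kb, where 106 of the 953 regions found in all 6 lists (11.1%) did. The A384T peak was the wider of the pair in 3788 members and the WT peak in 3288. The widest member lay on chromosome 2 from 79133719 to 79135276, where the WT peak covered all 1558 bp and the A384T peak 196 bp. The next was on chromosome 2 from 72816589 to 72818121, with an A384T peak of 1418 bp and a WT peak of 261 bp. Then came chromosome 19 from 12869174 to 12870543, with 1282 bp in A384T and 266 bp in WT. In each of these regions a single library gave most of the width.

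The positions of the summits, which the rule does not use beyond overlap, lay close together in the 2 libraries. The summits were a median of 25 bp apart, and in 5469 members (77.0%) they were within 50 bp. For regions found in all 6 lists the median was 15 bp, with 88.6% within 50 bp. The shared stretch covered a median of 72.2% of the joined length in members and 80.5% in regions of all 6 lists. Overlaps of 10 bp or less occurred in 4 members. The smallest, 2 bp, was seen on chromosome 8 from 47060488 to 47060894 and on chromosome 6 from 124881031 to 124881442, and 6 bp was shared on chromosome 7 from 30978881 to 30979227. Just outside the rule, a WT peak and an A384T peak missed each other by 4 bp on chromosome 7 from 137775160 to 137775521, by 6 bp on chromosome 8 from 113342325 to 113342681 and by 18 bp on chromosome 4 from 116358083 to 116358621. Only 42 such pairs had a gap of 200 bp or less, so the 1 bp rule leaves few near misses between the replicate 1 lists.

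The order of members by strength was only loosely alike in WT and A384T. Across the 7104 members the Spearman correlation of -log10 q was 0.301. It was close to this in regions with 1 other list (0.324) and with 2 (0.306), and was 0.460 with 3 and 0.637 across the 953 regions of all 6 lists. These values are across regions that share a pair of libraries, with 1 library per genotype. The quartiles of -log10 q in WT replicate 1 were 24.0 and 45.0 in members and 127 and 226 in regions of all 6 lists. The rule sets these ranges in part, and the part of the range in the coefficients was not tested. Pileup was more alike, at 0.614 across members, 0.642 with 1 other list, 0.597 with 2, 0.721 with 3 and 0.765 across regions of all 6 lists. The difference in percentile, WT minus A384T, had a median of -0.42 points with quartiles of -19.2 and 19.98, and 1894 members (26.7%) lay within 10 points.

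A difference of at least 25 percentile points was set as the size to count, since 1 library per genotype allows no test. WT stood higher by this margin in 1439 members (20.3%), beside 20.4% of all 13312 regions in both lists, so this share is at the background. A384T stood higher in 1372 members (19.3%), beside a background of 13.4%. In the 6208 shared regions that are no members the A384T direction accounted for 6.72% and the WT direction for 20.5%. Among members the directions were thus nearly even, whereas among regions that reached other lists WT replicate 1 more often stood higher. The rule set which regions fell in either class, and the difference has no replicate check.

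**Figure D2:**
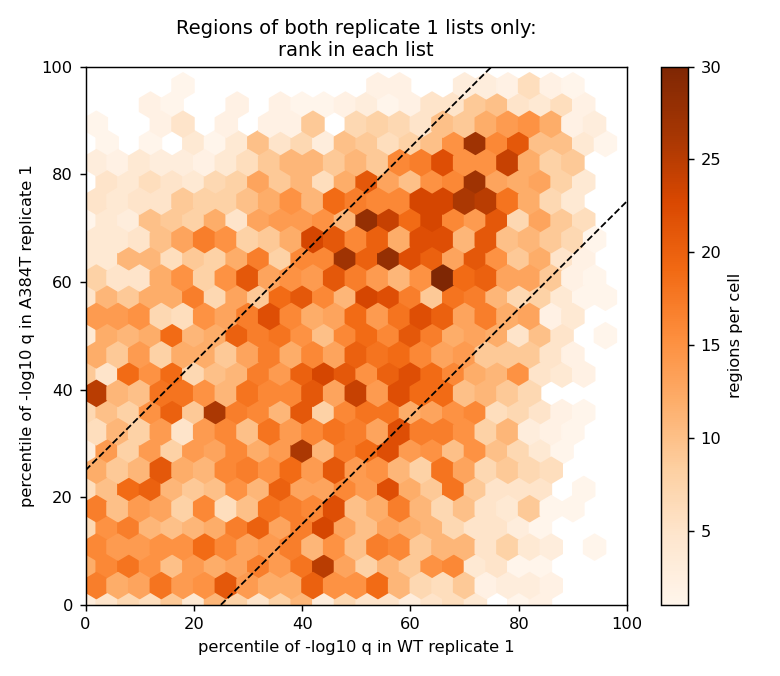
Each hexagon counts members by their percentile of -log10 q in WT replicate 1 (x axis) and A384T replicate 1 (y axis). Dashed lines mark a difference of 25 points. Members fill the plane below about the 80th percentile and thin out in the upper right corner, where 126 are at 80 or more in both.

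The largest differences between the WT replicate 1 and A384T replicate 1 libraries were as follows, with no replicate to check them. On chromosome 14 from 122461791 to 122462382 the pileup was 88 in WT and 24 in A384T, with percentiles of 85.8 and 0.33. WT also led on chromosome 15 from 61502160 to 61502511, with pileups of 72 and 31, and on chromosome 19 from 3890254 to 3890520, with 87 and 35. A384T led most on chromosome 2 from 11475503 to 11475831, with a pileup of 112 against 43 in WT and percentiles of 89.0 and 0.94. It also led on chromosome 2 from 24830506 to 24830876, with 128 against 39, and on chromosome 19 from 6241421 to 6241818, with 110 against 48. All 6 regions had a summit offset of 66 bp or less, so the 2 summits lay close together while their heights differed. Their ranks also depend on the control under the summits, which is given further below.

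The strongest members reached the level of many widely shared regions. First by mean percentile was chromosome 19 from 8955248 to 8955556, with a pileup of 125 and a fold over control of 23.3 in WT, and a pileup of 95 and a fold of 28.3 in A384T. On chromosome 1 from 108067909 to 108068404 the pileups were 120 and 135. Chromosome 16 from 4558604 to 4559283 had pileups of 126 in WT and 106 in A384T. A second region on chromosome 1, from 37947056 to 37947474, had 106 and 111. The highest WT value of the 10 best-ranked, a pileup of 130 with a fold of 43.8, was on chromosome 13 from 30266543 to 30266793, where A384T had a pileup of 70 and a fold of 28.9. The other 5 lay on chromosome 16 (16870690 to 16871114), chromosome 14 (25306097 to 25306432), chromosome 1 (55144629 to 55145115), chromosome 15 (85709567 to 85709895) and chromosome 5 (142877263 to 142877611), with pileups of 90 to 113 in WT and 93 to 134 in A384T. All 10 had a summit offset of 23 bp or less. Their absence from the lists of the 4 other libraries is set by the rule.

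The control libraries gave a further readout. The deposited fold is the ChIP pileup over the local control background, each with 1 tag added, so the background under every summit could be worked out from the 2 columns. Its lowest value equalled the genome-wide background given by fragment length, tag number and genome size, 1.41 tags in WT replicate 1 and 1.45 in A384T replicate 1. Poisson p-values recomputed from it came within 0.5 of the deposited -log10 p for 99.7% and 99.8% of the peaks.

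Members stood on raised control background, and the other regions of both replicate 1 lists did so to a lesser degree. The median background was 4.42 tags, or 3.14 times the genome level, in WT replicate 1 (highest 69.1 times). In A384T replicate 1 it was 3.82 tags, or 2.62 times (highest 67.2 times). The genome level is the floor of these ratios, which rest on few control tags. In WT the member median exceeded regions of that list alone (1.49 times), regions with 1 other list (2.62 times) and regions of all 6 lists (2.44 times). In A384T it exceeded regions with 1 other list (2.19 times) and of all 6 lists (2.099 times). It lay near regions of A384T replicate 1 alone (2.42 times). A background of at least 2 times the genome level in both controls was present at 4429 members (62.3%). The same held for 1449 of the 2813 regions with 1 other list (51.5%) and 456 of the 953 regions of all 6 lists (47.8%). In the A384T control alone it was present at 68.8% of members and 66.0% of regions of A384T replicate 1 alone. The median fold of members was 9.83 in WT and 10.9 in A384T. In WT it was below the 10.5 of regions in that list alone, although the pileup was higher, and in A384T it was above the 9.38 of regions in that list alone. The backgrounds of the 2 controls, which are separate libraries, correlated across members with a Spearman coefficient of 0.627. Other shared regions were similar, at 0.653 with 1 other list, 0.612 with 2, 0.611 with 3 and 0.550 across regions of all 6 lists.

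The same held among peaks of like height, where members were compared within bands of pileup. Of member peaks with a pileup from 50 to below 60 in WT replicate 1, 84.9% had a background of at least 2 times the genome level. This share was 59.5% in regions with 1 other list, 39.4% with 2, 34.2% with 3 and 55.9% in regions of that list alone. In A384T replicate 1 the share was 82.2% for members, 51.2% with 1 other list, 42.9% with 2 and 30.8% with 3. Regions of A384T replicate 1 alone stood above members in each band, for example at 93.0% against 89.9% for pileups from 60 to below 80. Among regions in both lists the share was thus highest for members in either library at this height. The authors' q-value is computed from pileup and control background together, so these shares are not independent of the rule. The control background of the other 4 libraries at these positions was not tested.

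**Figure D3:**
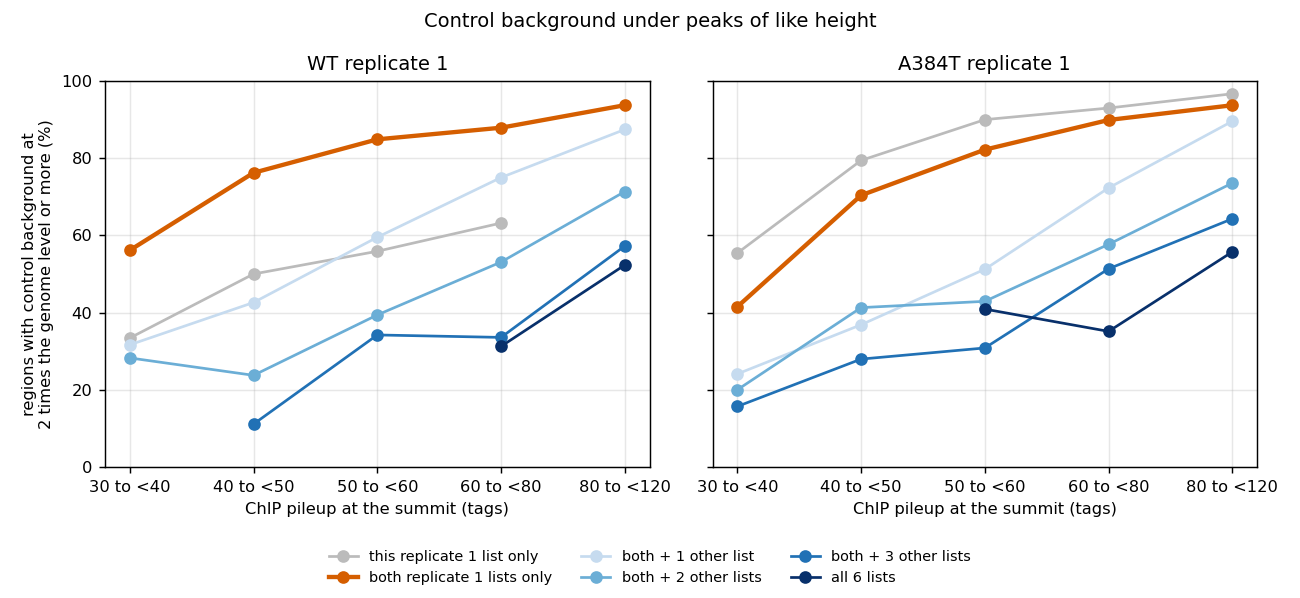
The x axis gives bands of ChIP pileup at the summit (tags) and the y axis the share of regions (%) whose control background was at least 2 times the genome level, per class and library, for classes with at least 20 regions in a band. The orange line, both replicate 1 lists only, lies above every class with other lists in both panels, at 87.9% in WT and 89.9% in A384T for pileups from 60 to below 80.

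Control background moved with the difference in rank between WT replicate 1 and A384T replicate 1. The 4429 members on raised background in both controls had median percentiles of 43.95 in WT and 52.9 in A384T, and median pileups of 54 and 60. The 1227 members under 2 times the genome level in both controls had percentiles of 52.4 in WT and 28.1 in A384T, with pileups of 39 and 32. Members that ranked higher in A384T by at least 25 points had raised background in both controls in 81.4% of cases, those that ranked higher in WT in 38.8%, and those between in 64.1%. The median background of members higher in A384T was 4.19 times the genome level in WT and 2.89 times in A384T. For members higher in WT it was 1.96 and 2.099 times, and for those between 3.14 and 2.62 times. The 3 named regions led most by WT had, in the order given above, 2.62, 1.0 and 1.05 times in WT. In A384T they had 2.099, 2.62 and 2.62 times. The 3 led most by A384T had 6.81, 3.67 and 5.76 times in WT and 3.67, 3.67 and 2.11 times in A384T. The ranks are those of -log10 q, which is computed from pileup and this background together, so the link is partly built in. The part of the control background in these rank differences was not tested.

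Members lay farther from the most reproducible FoxP3 sites than did regions that both replicate 1 lists shared with other lists. The distances were not compared with positions drawn at random. The median distance to the nearest of the 953 regions found in all 6 lists was 627 kb (quartiles 153 and 1904 kb). This value depended on the lists used, at 377.5 kb without WT replicate 2, 394 kb without A384T replicate 3 and 1749 kb with all lists at the length of the shortest. The other classes were not recomputed in those settings. With all lists in full the distance was 473 kb for regions with 1 other list, 367 kb with 2, 201 kb with 3 and 103 kb from one region of all 6 lists to the next. Regions of WT replicate 1 alone were nearer than members, at 349 kb, and those of A384T replicate 1 alone farther, at 738 kb. Within 10 kb of a region of all 6 lists were 359 members (5.05%), 761 regions of WT replicate 1 alone (12.4%) and 91 of A384T replicate 1 alone (2.32%). Distance therefore did not simply follow strength, since both single-list classes were weaker than members.

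**Figure D4:**
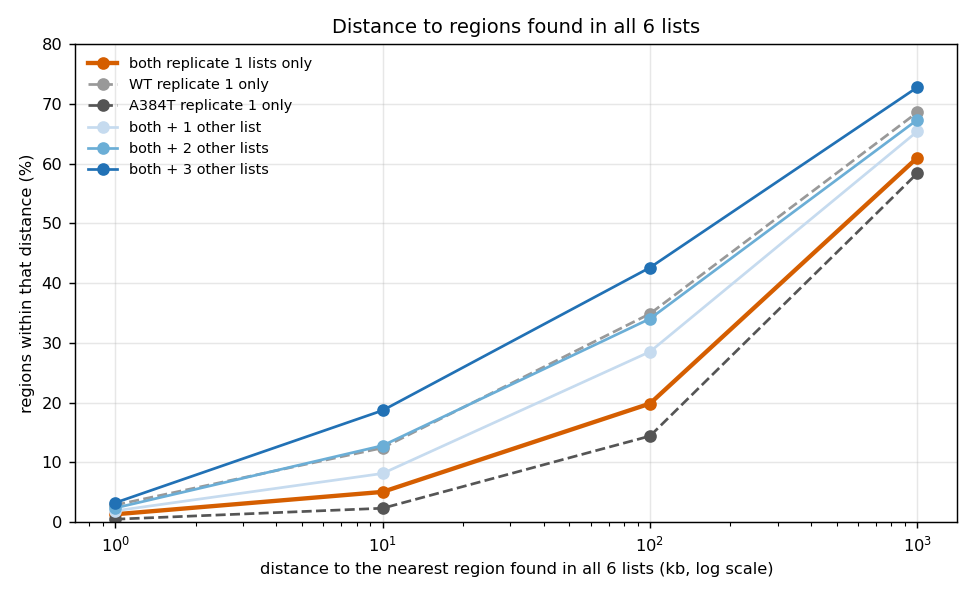
The x axis gives the distance to the nearest region found in all 6 lists (kb, log scale) and the y axis the share of regions within 1, 10, 100 and 1000 kb, with solid lines for regions in both replicate 1 lists and dashed lines for regions in 1 of them. Members (orange) reach 5.05% at 10 kb and 61.0% at 1000 kb, between the 2 single-list classes.

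The members near a region of all 6 lists differed from the distant ones. Within 10 kb the median percentile was 57.6 in WT and 33.7 in A384T, and 45.1% had raised background in both controls. Beyond 1000 kb, where 2772 members lay, the percentiles were 44.4 and 46.8, and 65.2% had raised background. Members near such regions thus ranked higher in WT than in A384T, while distant ones ranked alike. The nearest lay 21 bp away on chromosome 10 (94786096 to 94786411), 37 bp away on chromosome 6 (99473328 to 99473720) and 54 bp away on chromosome 10 (79317656 to 79318151). Farthest were 3 regions on chromosome 3, from 157699380 to 157699711, from 157694277 to 157694876 and from 157196953 to 157197335, at 19680617 to 20183044 bp.

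Not all members were isolated from the other lists. A region with a peak in any of the other 4 libraries lay within 200 bp of 197 members (2.77%), within 1 kb of 666 (9.38%) and within 10 kb of 1905 (26.8%), with a median distance of 42.7 kb. Another member lay within 10 kb of 2111 (29.7%), with a median of 31.6 kb. These shares were not set beside those of other classes, so they do not show that members cluster or stand apart.

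Members were spread over 1551 of the 1787 windows of 1 Mb that held any region, with a median of 4 per occupied window. Regions of all 6 lists fell in 512 of the 1787 windows. Of these, 495 also held members, and 41.9% of all members lay in them. Across the 1787 windows the counts of members and of regions of all 6 lists had a Spearman coefficient of 0.370. At least 10 members were found in 144 windows, which together held 1852 members (26.1%). By chromosome, members were 24.7% of the regions of chromosome 1 and 34.6% of those of chromosome 5, the lowest and highest of the 19, beside 29.4% overall. Chromosome 5 held 6.36% of members but 4.20% of regions of all 6 lists, and chromosome 1 held 7.33% and 9.55%.

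The windows richest in members differed in their surroundings. The most crowded, on chromosome 19, had 39 members between 25035988 and 25263518, beside 67 regions of WT replicate 1 alone, 0 of A384T replicate 1 alone and 0 of all 6 lists. Its members were wide, with a median of 536 bp, ranked at a median percentile of 47.1 in WT and 13.7 in A384T, and sat on control background of 1.26 and 1.00 times the genome level. Of these members 34 fell within 93.9 kb, from 25169652 to 25263518, where regions of any class covered 50.8% of the sequence. Windows on chromosome 4 (22 members, 123038634 to 123594860) and chromosome 12 (19 members, 52478379 to 52989112) were alike in having many regions of WT replicate 1 alone, 88 and 38, and background of 1.05 and 1.00 times the genome level in WT.

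Other windows had few regions of WT replicate 1 alone and high control background. On chromosome 13 a window held 26 members between 23516428 and 23854215, beside 4 regions of WT replicate 1 alone and 13 of A384T replicate 1 alone, at 4.98 times the genome background in WT and 4.20 times in A384T. A second window on this chromosome held 19 members between 21261671 and 21903950, beside 1 and 6 such regions, at 6.29 and 4.20 times. Mouse chromosome 13 carries the largest cluster of replication-dependent histone genes, but these positions were not compared with it. Chromosome 10 had adjoining windows with 18 members (79144443 to 79755259) and 24 members (80052991 to 80973333), at 4.19 and 3.67 times the background in WT and 2.97 and 2.90 times in A384T. Beside them lay 2 and 8 regions of WT replicate 1 alone, but 15 and 26 of A384T replicate 1 alone. In these 4 windows the A384T percentiles were above the WT ones in 3, with medians of 40.7 against 26.9, 58.9 against 31.5 and 63.5 against 45.6, and below in the chromosome 10 window of 24, with 48.2 against 58.4. The remaining windows among the 10 richest were mixed. Chromosome 15 (21 members, 81230332 to 81977774) had 26 regions of WT replicate 1 alone on a background of 3.14 times the genome level in WT, and chromosome 11 (18 members, 98010781 to 98998076) had 18 at 3.67 times. Chromosome 7 (21 members, 25055355 to 25990616) had 6 at 3.14 times.

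The number of members moved with the length of the lists. With both replicate 1 lists shortened to 6478 peaks, the length of the longest other list, 675 regions met the rule. At 4000 peaks there were 143, at 2000 peaks 5, and at 1000 peaks 0, with the other 4 lists left whole. So among the 485 regions shared by the 1000 strongest peaks of each replicate 1 list, every one had a peak in at least 1 other library.

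The same class can be formed for each of the 15 pairs of libraries. In full lists the replicate 1 pair had 7104 exclusive regions and the next, WT replicates 1 and 3, had 207. With all 6 lists cut to 1670 peaks, the length of the shortest, the replicate 1 pair had 45 and ranked 7 of 15. The 6 pairs within a genotype had 54 to 96 exclusive regions. Above all other pairs between genotypes stood the 3 that share a replicate number, with 45 for replicate 1, 42 for replicate 3 and 39 for replicate 2. The remaining 6 pairs had 5 to 21. These 3 kinds of pair did not overlap at 1670 peaks, nor at 1000 peaks (36 to 66, 16 to 32 and 3 to 12) or 500 peaks (18 to 37, 14 to 16 and 0 to 11), both lengths chosen after the data were seen. The pairs share libraries, so these counts are a description and have no test.

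**Figure D5:**
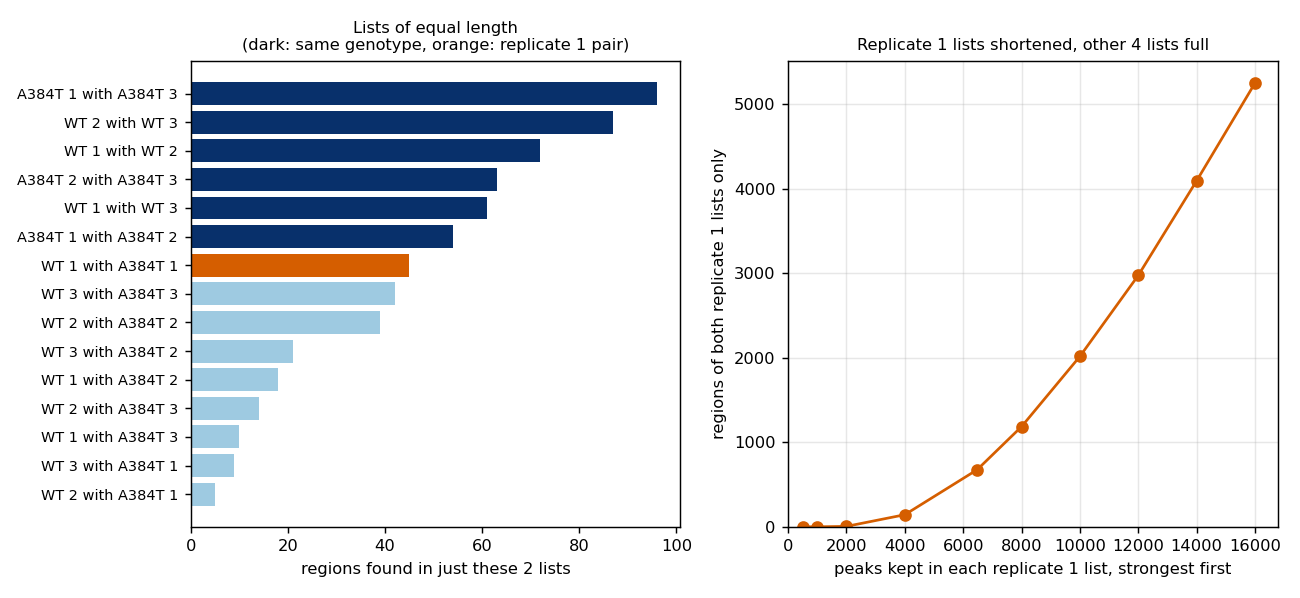
Left, the number of regions found in just the 2 named lists (x axis) for each pair of libraries (number after the genotype is the replicate), with every list at 1670 peaks. Right, the number of regions of both replicate 1 lists only (y axis) against the number of strongest peaks kept in each replicate 1 list (x axis), with the other lists whole. The replicate 1 pair has 45 on the left, below the 6 same-genotype pairs at 54 to 96, and the curve on the right rises from 0 at 1000 peaks to 5249 at 16000.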

How the data were processed

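ChIP-seq with an anti-FoxP3 antibody was read from 6 deposited peak lists, 1 per library. The antibody, 4 µg of an in-house rabbit polyclonal, was applied after a 30 min fixation in 1% formaldehyde, per the labels' protocols. Bowtie2, MACS2 and mm9 are named in the submitters' processing notes. Peaks were called per library with MACS 2.1.0.20140616 against a control at a q-value cutoff of 1e-10, keeping 1 tag per position and strand and scaling the larger data set towards the smaller, per the file headers. The deposited values are the pileup signal, the -log10 p-value, the fold (a ratio of ChIP to local control) and the -log10 q-value of each peak.

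From these, peaks on chromosomes 1 to 19 were joined at 1 bp, and a region took its strongest peak per list. Distances run between region edges. Named regions followed a rule (10 best-ranked, 3 at each extreme of difference, width, distance and overlap, the richest 1 Mb windows), and chromosome 18 was left out of naming. The 93.9 kb stretch, the control background with its 2-times level, and list lengths other than those of whole lists were chosen after values were seen. Members and lists were chosen with earlier results of these data known. Joining and distances were checked on simulated data. Alternatives were other joining rules, thresholds, list lengths and ranks, chromosomes X and Y kept, and left-out libraries. Python 3.11.15, numpy 2.4.6, pandas 2.3.3, scipy 1.17.1 and matplotlib 3.10.9 were used. The gene table is of GRCm38.p6, so no gene, promoter or sequence was joined to the mm9 peaks.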

Additional observations from a re-analysis of the deposited data

Results flagged for a closer look

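Regions with a peak in both replicate 1 lists and no other also occurred on sequences left out of the main count. Chromosomes X and Y were kept in 1 alternative, which gave 7256 such regions. Chromosome X held 152 such regions among 551 (27.6%), and unplaced sequence held 22 among 179 (12.3%), both above the 3 that a count of 0 allows. On the numbered chromosomes the share was 29.4%, and 24.7 to 34.6% per chromosome. The X share lay within this range, so passing 3 does not set X apart, and the unplaced share lay below it. Chromosome Y held 0 among 39 regions, which allows a share of up to 7.69%.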

How the results depend on the processing

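The alternatives gave 50 recomputed values, several per alternative. Of these values, 28 stayed within 1.5 times for a count, or within the spread set for a median, and 22 moved. The count of 45 at the shortest list length is among the 22 under 2 results. The comparisons of WT with A384T percentiles, and of members with other classes, were not rerun under the alternatives. No paired analysis was possible because the results come from no test. The count of 7104 became 675 with the replicate 1 lists at the length of the longest other list and 45 with all lists at the shortest, 32 at 1000 peaks and 14 at 500, both added after the data were seen. Leaving out 1 library gave 7110 to 13454 regions; the values 11228 without WT replicate 1 and 13454 without A384T replicate 1 follow a wider rule, presence in the remaining replicate 1 list and no other. Without A384T replicate 2 there were 9479. The median distance of 627 kb became 662 kb where no other peak lay within 1 kb, 871 kb at -log10 q of at least 20 and 1749 kb with all lists at the shortest. Leaving out 1 library gave 377.5 (WT replicate 2) to 663 kb (WT replicate 1), and 394 kb without A384T replicate 3. The mean of the 2 median percentiles, 45.9, became 35.7 and 34.5 in the shortened lists and 38.5 when ranked by fold. With 1 of the other 4 libraries left out it was 45.9 to 52.1. The distances without WT replicate 1 (663 kb) and without A384T replicate 1 (497 kb) follow the wider rule. So do the percentiles, 37.2 and 35.8, each the median of the 1 remaining replicate 1 list. A region missing from the shorter lists had no peak past the cutoff there, which does not show that FoxP3 was absent.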
